A study of Mus musculus with 6 samples.

Results

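Border-associated macrophages were examined in single-nucleus RNA-seq data from mouse lumbar spinal cord. A nucleus was taken as a member when it had at least 500 unique molecular identifiers (UMIs, each standing for 1 captured transcript) with under 5% of them mitochondrial, and at least 2 of the 6 markers Mrc1, F13a1, Cd163, Lyve1, Pf4 and Ms4a7 were detected. It could hold at most 1 UMI of the neuronal genes Snap25 and Rbfox3 together, and at most 1 UMI of the fibroblast gene Dcn. These limits were met by 89 of the 42628 nuclei that passed the UMI and mitochondrial limits, or 0.209%. The 6 libraries, 3 PHD1-/- and 3 PHD1+/+, came from frozen tissue of C57BL/6 mice that were 110 days old. All of them, PHD1+/+ included, carried SOD1G93A, a mutant human superoxide dismutase transgene that causes motor neuron disease, so every comparison lies within this disease model. PHD1 is the product of Egln2, an oxygen-sensing prolyl hydroxylase, and the series title speaks of motor neuron protection and of interferon signalling in astrocytes. The labels do not name the PHD1 allele, and speak of littermate pairs without saying that the replicate number marks a pair.

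Border-associated macrophages live in the meninges, the perivascular spaces and the choroid plexus, at the edges of the central nervous system rather than in its parenchyma, which is the place of microglia. They take up material from fluid and blood vessels through scavenger receptors, and some of them present antigen on MHC class II molecules. Those that line vessels and the pia typically carry the hyaluronan receptor Lyve1 and little MHC class II, while another state carries much MHC class II and little Lyve1.

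The 6 libraries held 42758 barcodes, with 14120298, 33794389 and 28565474 UMIs in PHD1-/- replicates 1 to 3 and 18901508, 32322447 and 24327572 UMIs in PHD1+/+ replicates 1 to 3. Barcodes began with another sequence in replicate 1 of both genotypes than in replicates 2 and 3, so those libraries used another barcode list. Pairs of libraries shared 0 to 14 barcodes, apart from the 86 shared by replicate 1 of the 2 genotypes, and 3 of the 89 members had a barcode that also occurred in another library. Egln2, the gene targeted in the knockout, stood at 9.63, 8.97 and 10.2 CPM (its UMIs relative to the UMIs of all genes in a library, on the usual counts-per-1000000 scale) over all barcodes of PHD1-/- replicates 1 to 3, below the 29.7, 18.7 and 16.6 CPM of PHD1+/+ replicates 1 to 3. Among members it had 0 UMIs in each PHD1-/- library and 1, 0 and 1 in PHD1+/+ replicates 1 to 3. A count of 0 allowed up to 172, 351 and 66.4 CPM in members of PHD1-/- replicates 1 to 3, a limit that covers counting error only, so the loss of Egln2 could not be seen in the border macrophages themselves.

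Members numbered 8, 4 and 26 in PHD1-/- replicates 1 to 3 and 12, 28 and 11 in PHD1+/+ replicates 1 to 3. They held 163210 UMIs in all, and a member had a median of 1407 UMIs, the shallowest 518 and the deepest 8411. Since the markers chose the members, their levels are given as a description. Mrc1, the mannose receptor, was detected in 79 of the 89 members, and F13a1, the A subunit of coagulation factor XIII, in 65. Ms4a7, a membrane protein that border macrophages carry and microglia largely lack, was detected in 38, and Cd163, the scavenger receptor for haemoglobin bound to haptoglobin, in 33. Pf4, a chemokine also made by platelets, was found in 21 members and Lyve1 in 9. The most common combination was Mrc1 with F13a1, in 57 members, and Mrc1 came together with Cd163 and with Ms4a7 in 32 members each.

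Exactly 2 markers were detected in 44 members, 3 markers in 27, 4 in 15, 5 in 2 and all 6 in 1. Just outside the limit lay 390 nuclei with exactly 1 marker. A further 49 nuclei had at least 2 markers but too many neuronal or Dcn UMIs. Levels of the markers were uneven between libraries. In PHD1-/- replicates 1 to 3 the members' Mrc1 level was 573, 585 and 2923 CPM, and in PHD1+/+ replicates 1 to 3 it was 944, 1854 and 2983 CPM. F13a1 stood at 860, 1521 and 2746 CPM in PHD1-/- and at 405, 2031 and 3192 CPM in PHD1+/+ members, in the same order of replicates. Cd163 stood at 57.3, 117 and 620 CPM in PHD1-/- and at 135, 927 and 1047 CPM in PHD1+/+ members. For these 3 genes replicate 1 was the lowest library of each genotype, and the ranges of the 2 genotypes overlapped. In PHD1-/- the order of replicates 1 and 2 rests on few counts, with 10 and 5 UMIs of Mrc1, 15 and 13 of F13a1 and 1 and 1 of Cd163.

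**Figure D1:**
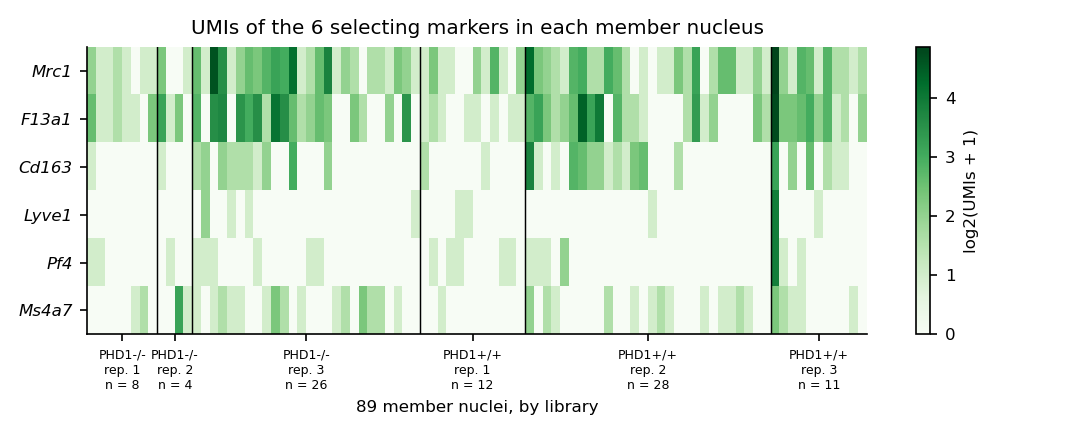
Each column is 1 of the 89 member nuclei, grouped by library with the PHD1-/- libraries on the left, and each row 1 of the 6 selecting markers; colour gives log2(UMIs + 1). Mrc1 and F13a1 fill most columns, Lyve1 only 9, and the single nucleus with all 6 markers is in PHD1+/+ replicate 3.

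The label was checked against 19 genes that macrophages of all kinds express, none of them a selecting marker, among them Csf1r, Ptprc and C1qa. Members of replicates 2 and 3 carried them and many members of replicate 1 did not. The median number of these 19 genes per member was 3.5, 10.5 and 8.5 in PHD1-/- replicates 1 to 3 and 3, 9 and 9 in PHD1+/+ replicates 1 to 3. At least 3 were detected in 69 of 69 members of replicates 2 and 3 but in 13 of 20 members of replicate 1, and 2 members of PHD1+/+ replicate 1 had none. At least 4 of 8 oligodendrocyte genes were detected in 11 of 20 replicate 1 members, against 3 of 69 in replicates 2 and 3. At least 2 endothelial genes were detected in 5 of 20 against 1 of 69. Genes of other cells also occurred outside replicate 1. At least 2 of 8 astrocyte genes were detected in 11 members, of replicate 1, PHD1-/- replicate 3 and PHD1+/+ replicate 2. In PHD1+/+ replicate 2, 1 member had 8 of 8 endothelial genes and another 7 of 8 astrocyte genes. Astrocyte genes summed to 1794 CPM in that library's members and to 570 CPM in its homeostatic-type microglia. In every other library the members were lower than these microglia. Microglia carry the 19 macrophage genes too, with medians of 11 to 13 in replicates 2 and 3. In replicate 1 the medians of homeostatic-type and disease-associated microglia were 7 and 8 in PHD1-/- and 6 and 6 in PHD1+/+, lower as well. These 19 genes thus tell macrophages of either kind from other cells and not border macrophages from microglia. All 16 members with at least 2 of 6 homeostatic or at least 2 of 5 disease-associated microglia genes, 9 and 7 of them, were among the 69 of replicates 2 and 3. For part of the replicate 1 members the data go against the name, and for these 16 the name rests on the selecting markers beside microglial genes. Results on genes below are given with and without replicate 1 where that changes them.

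**Figure D2:**
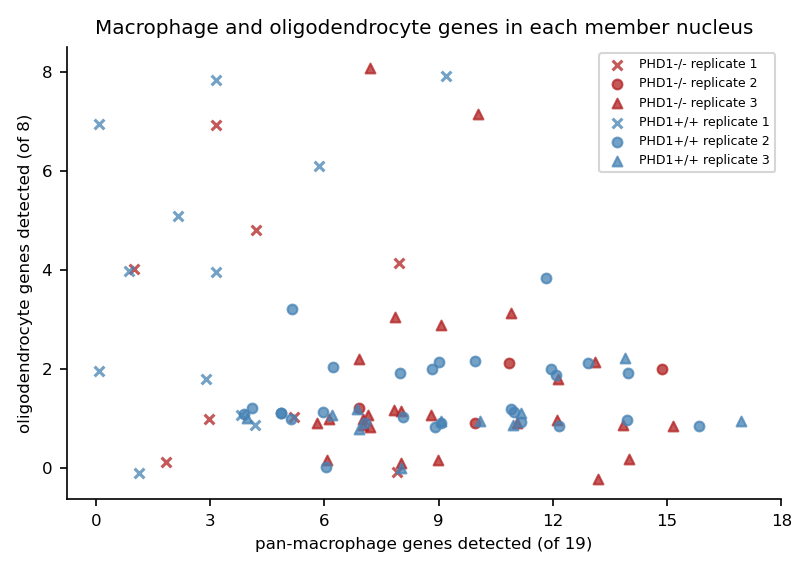
Each point is a member nucleus, placed by how many of 19 pan-macrophage genes and how many of 8 oligodendrocyte genes were detected in it, with a small random offset so that points do not hide each other. Crosses, replicate 1 of both genotypes, spread over the left and upper part, and circles and triangles, replicates 2 and 3, lie at 4 to 17 pan-macrophage genes.

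More markers went with more macrophage genes. In replicates 2 and 3, members with 2, 3 and at least 4 markers had medians of 8, 9 and 11 pan-macrophage genes at median depths of 1386, 1407 and 1367 UMIs. In replicate 1, the 15 members with 2 markers had a median of 3. Nuclei with exactly 1 marker had medians of 1, 8 and 6 pan-macrophage genes in PHD1-/- replicates 1 to 3 and of 1, 4.5 and 5 in PHD1+/+ replicates 1 to 3. As a background, oligodendrocyte nuclei with no UMI of 5 macrophage genes met at least 2 markers in 1 of 1880, 0 of 2447 and 0 of 1542 nuclei of PHD1-/- replicates 1 to 3 and in 3 of 2388, 0 of 2501 and 0 of 1227 of PHD1+/+ replicates 1 to 3. Their median depths were 925, 1772 and 1938 UMIs in PHD1-/- and 952, 1606 and 1738 UMIs in PHD1+/+ libraries. All 4 such nuclei came from replicate 1. The background nuclei met the other limits of the rule, so these 4 were members by definition.

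Homeostatic microglial genes were low in the members. A list of 18 of them summed to 1433, 1638 and 3233 CPM in PHD1-/- and to 1304, 2820 and 2198 CPM in PHD1+/+ members, against 7293 to 14651 CPM in homeostatic-type microglia, which 6 of the 18 had chosen. Of those 6, P2ry12, Tmem119, Siglech, Gpr34, Sall1 and P2ry13, 51 of 89 members had none and 9 had at least 2. At least 2 of 5 genes of disease-associated microglia (Itgax, Lpl, Gpnmb, Spp1 and Cst7) were detected in 7 members. The full list of 23 disease-associated genes was not scarce: it summed to 1664 to 10048 CPM in members, against 5179 to 10425 CPM in homeostatic-type and 8624 to 20857 CPM in disease-associated microglia, and in PHD1-/- replicate 2 and PHD1+/+ replicate 3 members lay above the homeostatic-type microglia. Genes that define T cells, among them Cd3e, Cd3d and Trac, were at 0 in every library's members, as were the B cell genes Cd79a and Ms4a1 and the neutrophil gene Ly6g. Of the 8 genes of the B cell list, 4 were at 0 in members and 4 were detected. Bank1, an adaptor of B cell receptor signalling, stood at 172 and 421 CPM in members of PHD1-/- replicates 1 and 3 and at 135, 947 and 419 CPM in those of PHD1+/+ replicates 1 to 3, and was at 0 in the 4 members of PHD1-/- replicate 2. Ebf1, another gene of the list, stood at 630 and 22.1 CPM in members of PHD1-/- replicates 1 and 3. In those of PHD1+/+ replicates 1 to 3 it stood at 585, 138 and 0 CPM. The whole list of 8 summed to 0 to 1183 CPM in members, against 156 to 392 CPM in homeostatic-type microglia. The summed level of 14 monocyte and neutrophil genes ran from 115 to 887 CPM in 5 libraries and reached 7723 CPM in the 4 members of PHD1-/- replicate 2. A list of 10 dendritic cell genes summed to 57.3, 234 and 133 CPM in PHD1-/- and to 270, 177 and 262 CPM in PHD1+/+ members. Homeostatic-type microglia had 137, 97.3 and 124 CPM in PHD1-/- and 156, 131 and 145 CPM in PHD1+/+ libraries. Members were higher in every library but PHD1-/- replicate 1, on 1 to 9 UMIs per library. Scrublet, which marks likely doublets, marked 3 members.

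The share of border macrophages differed less between the genotypes than between libraries of 1 genotype. They made up 0.121%, 0.0541% and 0.426% of nuclei in PHD1-/- replicates 1 to 3 and 0.131%, 0.349% and 0.205% in PHD1+/+ replicates 1 to 3. Exact binomial 95% intervals ran from 0.0147% to 0.138% in the lowest library, PHD1-/- replicate 2, and from 0.278% to 0.623% in the highest, PHD1-/- replicate 3. PHD1-/- libraries averaged 0.200% ± 0.198 and PHD1+/+ libraries 0.229% ± 0.111 (SD, n = 3 each), a difference of -0.0282 percentage points with p = 0.7 in a two-sided exact permutation test over libraries. With 3 libraries against 3 that test cannot give a p below 0.1. PHD1-/- libraries spanned the whole range of PHD1+/+ libraries.

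Setting the members against microglia removes the number of neurons and oligodendrocytes caught. Microglia were 1458 homeostatic-type nuclei, with at least 2 of the 6 homeostatic genes, and 234 disease-associated nuclei, with at least 2 of the 5 disease-associated genes, and both classes were required to have none of the 6 border macrophage markers. Border macrophages were 4.94%, 0.966% and 9.85% of these macrophage nuclei together in PHD1-/- replicates 1 to 3, and 5.56%, 5.57% and 4.95% in PHD1+/+ replicates 1 to 3. The average was 5.25% ± 4.45 over PHD1-/- libraries and 5.36% ± 0.350 over PHD1+/+ libraries (SD, n = 3 each; difference -0.108 percentage points, two-sided exact permutation p = 0.9). The 3 PHD1+/+ libraries were close together, and of the PHD1-/- libraries 1 lay near them, 1 below and 1 above.

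**Figure D3:**
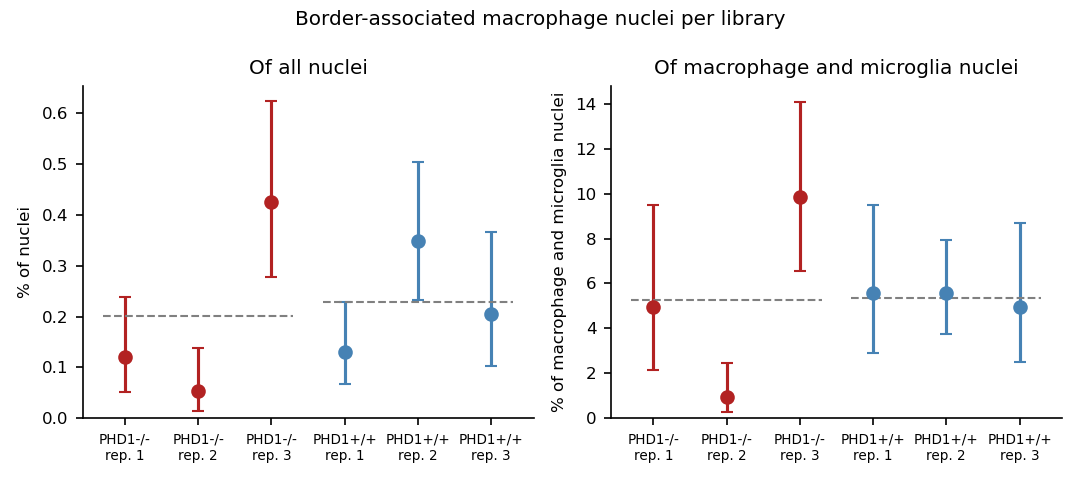
Share of border-associated macrophages among all nuclei (left) and among macrophage and microglia nuclei (right) in each library, with exact binomial 95% intervals; dashed lines are the means of 3 libraries. PHD1-/- replicate 2 is the lowest and PHD1-/- replicate 3 the highest library in both panels.

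The deepest members carried much of some libraries' counts. The member with all 6 markers, in PHD1+/+ replicate 3, had 8411 UMIs, 44.0% of all member UMIs of that library, with 321 UMIs of the lipid carrier Apoe, 281 of the lysozyme gene Lyz2 and 87 of the complement gene C1qb. It also held 14 of the 15 Lyve1 UMIs and 14 of the 16 Pf4 UMIs of its library's members. A member of PHD1-/- replicate 1 had 7322 UMIs, 42.0% of its library's, and in it 7 of 8 oligodendrocyte, 7 of 8 endothelial and 6 of 8 fibroblast genes were detected.

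Genes of border macrophages were next set against those of homeostatic-type microglia of the same libraries, using UMIs summed per library and class. PHD1-/- replicate 2, with 4 members, fell under the minimum of 5 and was left out of all gene tests, which leaves 5 libraries. Of 2475 genes tested, 336, or 13.6%, differed at an adjusted p under 0.05 (edgeR quasi-likelihood test with library as a block, Benjamini-Hochberg), 150 of them higher (6.06%) and 186 lower (7.52%) in border macrophages. Fold changes below are log2 of border macrophages over microglia, each with its standard error (SE), and adjusted p-values come from edgeR. Genes that chose either class are not read as results, and genes that go along with those genes in a nucleus are tied to the choice to some degree. Genes were first filtered on low counts. A gene low in microglia could pass only through border macrophages, and a gene low in border macrophages only through microglia.

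Rbpj, the DNA-binding protein through which Notch receptors act on transcription, rose. Its level was 974 and 3964 CPM in border macrophages of PHD1-/- replicates 1 and 3 and 1079, 3372 and 3925 CPM in those of PHD1+/+ replicates 1 to 3. In homeostatic-type microglia it was 49.8 and 162 CPM in the same PHD1-/- libraries and 53.5, 174 and 100 CPM in the PHD1+/+ libraries. All 5 border macrophage values lay above all 5 microglia values, and the fold change was 4.54 ± 0.35 (SE; adjusted p = 2.97e-17). Aoah, which encodes an enzyme that inactivates bacterial lipopolysaccharide, had 4, 50, 6, 44 and 14 UMIs in the members of the 5 libraries, against 1, 4, 0, 2 and 4 in their far more numerous microglia (6.69 ± 0.43, adjusted p = 5.4e-21). Vav3, a guanine nucleotide exchange factor, was higher by 5.18 ± 0.40 and Itsn1, an endocytic scaffold, by 3.62 ± 0.36. Bank1 rose by 3.28 ± 0.38 (adjusted p = 4.12e-10), with 8.92 to 79.6 CPM in microglia and no overlap.

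Of 26 other genes known to mark border macrophages, 7 passed the filter on low counts, of which 5 were higher and none was lower. All 7 had a positive fold change, with a median of 2.25 against -0.11 over all genes tested. This direction is in part fixed by the filter, which a gene low in microglia, such as Dab2, passed only through border macrophages. Dab2, an adaptor for clathrin-mediated uptake, stood at 172 and 1129 CPM in border macrophages of PHD1-/- replicates 1 and 3 and at 405, 1538 and 994 CPM in those of PHD1+/+ replicates 1 to 3, against 17.7 to 38.1 CPM in microglia of these libraries (4.98 ± 0.39, adjusted p = 3.9e-17). Stab1, a scavenger receptor, stood at 287 and 1085 CPM in PHD1-/- and at 89.9, 670 and 1047 CPM in PHD1+/+ border macrophages, against 66.9 to 121 CPM in microglia (2.60 ± 0.34, adjusted p = 1.2e-08). The value of PHD1+/+ replicate 1 lay inside the microglial range. Tgfbi, a matrix protein induced by TGF-beta, rose by 3.44 ± 0.44, Wwp1, a ubiquitin ligase, by 2.25 ± 0.32, and the transcription factor gene Maf by 1.16 ± 0.33 (adjusted p = 0.00854). Maf was no longer called in DESeq2, or in edgeR without PHD1-/- replicate 3, PHD1+/+ replicate 2 or PHD1+/+ replicate 3 (adjusted p from 0.0525 to 0.398 over the settings that lost it).

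With replicates 2 and 3 only, which left PHD1-/- replicate 3 and PHD1+/+ replicates 2 and 3, 4150 genes could be tested and 411, or 9.90%, differed (edgeR), 5.16% higher and 4.75% lower. Of the same 26 genes, 13 were then tested and 11 were higher, with the same limit from the filter. Besides the 5 above these were Ms4a6b, Ms4a6c and Ms4a4a, relatives of the marker Ms4a7, the scavenger receptor gene Colec12, the ectoenzyme gene Cd38 and Gas6, a ligand of the receptors Axl and Mertk. Colec12 had a fold change of 4.36 ± 0.45 and Cd38 one of 4.47 ± 0.61. Colec12 and Cd38 were each at 0 in the members of PHD1-/- replicate 1.

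**Figure D4:**
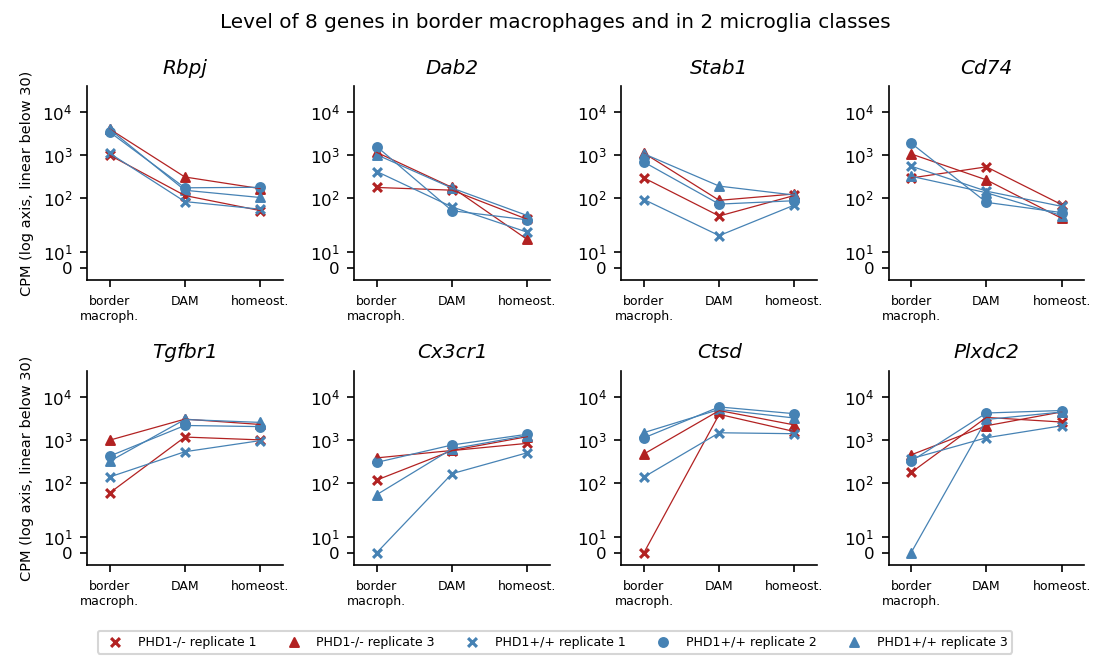
CPM of 8 genes in border macrophages, disease-associated microglia (DAM) and homeostatic-type microglia of the 5 libraries in the gene tests, on an axis that is logarithmic above 30 CPM; lines join the classes of a library, red for PHD1-/- and blue for PHD1+/+. Rbpj lies higher in border macrophages than in either microglia class in each library, and Tgfbr1 lies lower in each.

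Microglial identity genes were lower. Leaving out the 6 that chose the microglia, 9 of 18 homeostatic microglia genes were tested, 8 were lower and none higher, with a median of -2.35; their direction is in part fixed by the choice of the microglia. Cx3cr1, the fractalkine receptor, stood at 115 and 376 CPM in border macrophages of PHD1-/- replicates 1 and 3 and at 0, 296 and 52.3 CPM in those of PHD1+/+ replicates 1 to 3. Microglia had 821 and 1177 CPM in these PHD1-/- libraries and 495, 1341 and 1249.5 CPM in the PHD1+/+ libraries, with no overlap (-2.55 ± 0.39, adjusted p = 5.69e-07). Tgfbr1, a receptor for TGF-beta, stood at 57.3 and 974 CPM in PHD1-/- and at 135, 414 and 314 CPM in PHD1+/+ border macrophages, against 950 to 2530 CPM in microglia (-2.35 ± 0.36, adjusted p = 8.53e-07). The classes overlapped between libraries but not within any. Selplg, a ligand of P-selectin, changed by -3.34 ± 0.46 and Olfml3, a secreted matrix protein, by -3.34 ± 0.57. Outside the list, Plxdc2, a membrane protein gene, stood at 172 and 443 CPM in PHD1-/- and at 360, 316 and 0 CPM in PHD1+/+ border macrophages, against 2110 to 4792 CPM in microglia (-3.83 ± 0.40, adjusted p = 4.75e-12). Nav3, a gene of the neuron navigator family, fell by 4.56 ± 0.46.

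Of the 19 genes shared by all macrophages, 18 were tested. In border macrophages 1 was higher, 6 were lower and 11 were not called, with a median of -0.87. The genes that fell were Csf1r, the receptor for colony-stimulating factor 1 (-1.22 ± 0.34), Inpp5d, Apbb1ip, Ly86, Irf8 and Mertk, a receptor for the uptake of dying cells (-1.43 ± 0.34). The members of replicate 1 that lack macrophage genes enter these values. With replicates 2 and 3 only, 5 of 19 fell and 2 rose, and Irf8 was no longer among the calls. Irf8 was also lost without PHD1-/- replicate 1, PHD1-/- replicate 3 or PHD1+/+ replicate 1, and in DESeq2 (adjusted p from 0.0519 to 0.294 over the settings that lost it). Csf1r was lost with at least 3 markers per member, at a minimum of 1000 UMIs and without the library block (edgeR adjusted p from 0.0666 to 0.321). Inpp5d, Apbb1ip, Ly86 and Mertk were lost only without the library block. Lyz2 rose by 3.29 ± 0.44 (adjusted p = 2.32e-08). It stood at 516 and 930 CPM in border macrophages of PHD1-/- replicates 1 and 3 and at 764, 1558 and 15439 CPM in those of PHD1+/+ replicates 1 to 3, against 86.0 to 274 CPM in microglia, and 281 of the 295 UMIs behind the highest value came from 1 nucleus.

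Lysosomal proteases were lower, with 4 of 15 tested lysosome genes down and none up. Ctsd, which encodes cathepsin D, stood at 0 and 465 CPM in PHD1-/- and at 135, 1104 and 1465 CPM in PHD1+/+ border macrophages, against 1378 to 4037 CPM in microglia (-2.29 ± 0.37, adjusted p = 2.47e-06). The classes overlapped between libraries but not within any. Ctsl and Ctss, further cathepsins, changed by -1.83 ± 0.39 and -1.93 ± 0.34. Of 23 disease-associated microglia genes, 11 were tested after leaving out those that chose the microglia. Cd9 (-2.35 ± 0.38), Ctsd and the lipid receptor gene Trem2 (-2.04 ± 0.38) fell and none rose, with a median of -0.15. With replicates 2 and 3 only, 15 were tested, the same 3 fell and 5 rose, and the median was 0.59 (edgeR). Those that rose were Lgals3, which encodes galectin-3 (3.63 ± 0.57), Cybb, a subunit of the phagocyte NADPH oxidase (2.94 ± 0.43), the growth factor gene Igf1 (2.05 ± 0.51), the RNA-editing enzyme gene Apobec1 (0.96 ± 0.28) and Atp6v0d2, a subunit of the vacuolar proton pump. Lgals3 stood at 111 CPM in border macrophages of PHD1-/- replicate 3 and at 177 and 262 CPM in those of PHD1+/+ replicates 2 and 3, against 7.59 CPM and 20.7 and 6.92 CPM in microglia. In replicate 1 the members held 1 UMI of it in PHD1-/- and 0 in PHD1+/+. The rises and the median are in part fixed by the filter, which a gene low in microglia, such as Lgals3, passed only through border macrophages. They are also tied to the choice of the microglia, which had to hold more homeostatic than disease-associated genes. Against disease-associated microglia of the same libraries, Igf1 was at -0.89 ± 0.40, Apobec1 at -0.81 ± 0.37, Cybb at 0.36 ± 0.41 and Atp6v0d2 at 0.93 ± 0.61, and none was called.

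Ribosomal protein genes rose in 12 of 19 tested, with a median of 1.03, for example Rps29 by 1.37 ± 0.29 (edgeR adjusted p = 0.000362). None of the 19 was called once the deepest member of each library was left out, and 2 of 20 were called with replicates 2 and 3 only, 1 of 20 without PHD1-/- replicate 1 and 3 of 19 without PHD1+/+ replicate 3. Their summed level was 14042.5 and 4938 CPM in border macrophages of PHD1-/- replicates 1 and 3 and 7823, 4851 and 11984.5 CPM in those of PHD1+/+ replicates 1 to 3. The ferritin genes Fth1 and Ftl1 rose as well. Neither was called without the deepest members, without PHD1-/- replicate 1 or without PHD1+/+ replicate 3, and Fth1 was not called without PHD1+/+ replicate 2. Cp, which encodes the iron-oxidising protein ceruloplasmin, was called in each of these fits (2.58 ± 0.33 in all members).

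MHC class II genes had the highest median fold change of the lists tested, 4.46 over 2 genes. These molecules present peptides to CD4+ T cells, and Cd74, the invariant chain, escorts them through the cell. Both were higher. H2-Ab1, a beta chain, stood at 115 and 177 CPM in border macrophages of PHD1-/- replicates 1 and 3 and at 135, 966 and 419 CPM in those of PHD1+/+ replicates 1 to 3, against 7.59 to 18.7 CPM in microglia (4.89 ± 0.42, adjusted p = 2.66e-15). Cd74 stood at 287 and 1041 CPM in PHD1-/- and at 540, 1854 and 314 CPM in PHD1+/+ border macrophages, against 32.9 to 68.4 CPM in microglia (4.03 ± 0.39, adjusted p = 6.42e-13). No border macrophage value overlapped the microglia. Both genes were too low in microglia to pass the filter on low counts except through border macrophages. Their direction and the rank of this list are therefore in part fixed by the filter. With replicates 2 and 3 only, under the same kind of filter, 5 of 7 MHC class II genes were called, all higher (edgeR). H2-Aa, an alpha chain, had 16 UMIs in the members of PHD1-/- replicate 3 and 50 and 3 in those of PHD1+/+ replicates 2 and 3 (6.76 ± 0.58, adjusted p = 1.58e-08). H2-Eb1, another beta chain, had 20 UMIs in PHD1-/- replicate 3 and 50 and 4 in PHD1+/+ replicates 2 and 3 (7.01 ± 0.50, adjusted p = 8.87e-10). The others were H2-Ab1, Cd74 and Ciita, the co-activator that switches on MHC class II genes, and the chaperone genes H2-DMa and H2-DMb1 had fold changes of -0.21 ± 0.69 and 0.29 ± 0.68 and were not called.

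The promoters of H2-Aa and H2-Eb1 are shown because these genes were detected together, and because MHC class II promoters are textbook cases of a shared layout that includes a Y box, an inverted CCAAT element. The 150 bases before each gene start follow, from RefSeq on GRCm38.p6, read 5′ to 3′ on the strand of the gene. H2-Aa lies on the minus strand, with its window at chr17:34287824-34287973, and H2-Eb1 on the plus strand, with its window at chr17:34305717-34305866. Capitals mark GATTGG, searched on both strands.
H2-Aa: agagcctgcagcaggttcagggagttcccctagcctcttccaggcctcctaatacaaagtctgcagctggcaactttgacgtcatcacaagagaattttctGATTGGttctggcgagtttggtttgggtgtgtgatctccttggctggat
H2-Eb1: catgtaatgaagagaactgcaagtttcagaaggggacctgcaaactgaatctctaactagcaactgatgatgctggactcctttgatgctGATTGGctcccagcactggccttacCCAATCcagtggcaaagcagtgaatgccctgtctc
The motif begins 49 bases before the start of H2-Aa and 60 bases before that of H2-Eb1, where a further match stands on the other strand. It was present in 10.9% of 32851 promoter windows of this length, so a match is a description and not a binding site.

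MHC class II transcripts were spread unevenly over the members. Summed over H2-Aa, H2-Ab1, H2-Eb1 and Cd74, 48 of the 89 members had 0 UMIs, 32 had 1 to 9 and 9 had at least 10. The sum was 8, 4 and 91 UMIs in the members of PHD1-/- replicates 1 to 3 and 22, 243 and 21 UMIs in those of PHD1+/+ replicates 1 to 3. In PHD1+/+ replicate 2, 1 nucleus held 111 of the 243. The 9 nuclei with at least 10 UMIs had a median depth of 1793 UMIs and a median of 12 pan-macrophage genes, against 1304 UMIs and 8 genes in the 48 nuclei with none. Mrc1 was detected in 8 of the 9, F13a1 in 8 and Ms4a7 in 3. At least 2 of 10 dendritic cell genes, Ciita among the 10, were detected in 1 of the 9, in 1 of the 32 and in 1 of the 48 nuclei. The 1 of the 9 was the nucleus with 111 UMIs, which had no F13a1. Lyve1 was detected in 9 members of all 89, of which none was among the 9 with at least 10 MHC class II UMIs and 4 had 0. These counts are a description at low depth: with 24 Lyve1 UMIs in all members, a nucleus with none may still express the gene.

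**Figure D5:**
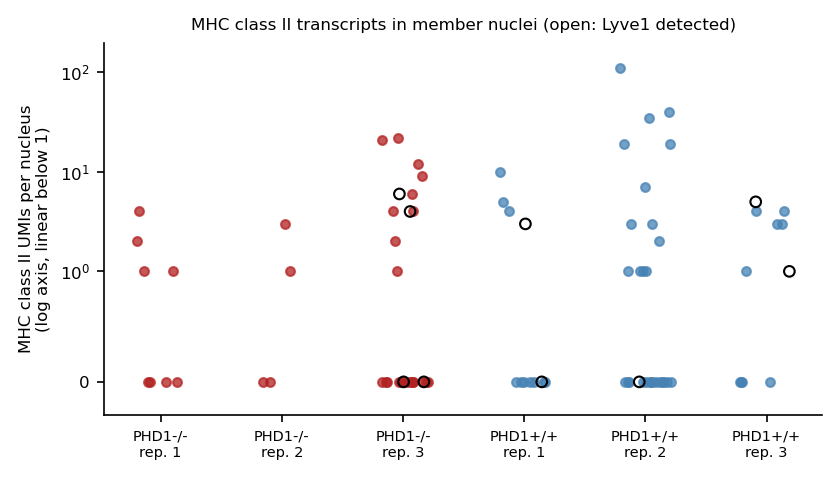
UMIs of H2-Aa, H2-Ab1, H2-Eb1 and Cd74 in each member nucleus by library, PHD1-/- on the left, on an axis that is logarithmic above 1 UMI; open circles are the 9 members with Lyve1. Most nuclei are at 0, and the 9 nuclei with at least 10 UMIs lie in PHD1-/- replicate 3 and in PHD1+/+ replicates 1 and 2.

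Disease-associated microglia, which arise in neurodegeneration and carry lipid-handling and lysosomal genes, were the other class for comparison. Fewer nuclei meant fewer genes: 510 were tested and 59, or 11.6%, differed, 22 higher (4.31%) and 37 lower (7.25%) in border macrophages (edgeR). Rbpj, at 974 to 3964 CPM in border macrophages, had 111 and 302 CPM in disease-associated microglia of PHD1-/- replicates 1 and 3 and 80.6, 169 and 148 CPM in those of PHD1+/+ replicates 1 to 3, below all 5 values of border macrophages (4.10 ± 0.38, adjusted p = 1.09e-05). Slc9a9, an endosomal sodium-proton exchanger, stood at 459 and 3787 CPM in PHD1-/- and at 450, 1992 and 2931 CPM in PHD1+/+ border macrophages. Disease-associated microglia had 149 and 948 CPM in these PHD1-/- libraries and 121, 809 and 777 CPM in the PHD1+/+ libraries, so that the classes overlapped between libraries but not within any (1.81 ± 0.33, adjusted p = 0.00226). Wwp1 was higher by 2.46 ± 0.35. Cd74 was higher by 2.09 ± 0.58 (adjusted p = 0.0316), and in PHD1-/- replicate 1 the order was the other way, with 287 CPM in border macrophages and 520 CPM in disease-associated microglia. Without PHD1-/- replicate 3, PHD1+/+ replicate 1 or PHD1+/+ replicate 3 it was not called (adjusted p from 0.0511 to 0.0922 over the settings that lost it).

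Of the disease-associated microglia genes that did not choose that class, 8 were tested, 6 were lower in border macrophages and none was higher, with a median of -1.90 against -0.0025 over all genes tested; this direction too is partly fixed by the choice of nuclei. Ctsd fell by 2.99 ± 0.51. Cd9 changed by -2.73 ± 0.45, Myo1e, a membrane-linked myosin, by -2.48 ± 0.44, and Trem2 by -1.89 ± 0.43 (adjusted p = 0.0102). Cd63 and Ank fell too. With replicates 2 and 3 only Cd63 was at -1.11 ± 0.40 and not called (adjusted p = 0.12), 13 of these genes were tested, 5 fell and none rose, and the median was -0.89 (edgeR). Cd63 was also lost without PHD1-/- replicate 1, PHD1-/- replicate 3, PHD1+/+ replicate 1 or PHD1+/+ replicate 3. Lysosome genes were lower in 5 of 12 tested and higher in none, with Ctsl at -2.31 ± 0.43, and in 4 of 12 with replicates 2 and 3 only, where Ctsz (adjusted p = 0.0568) was lost. The number of calls rested in part on 1 library: without PHD1+/+ replicate 2, which holds 83 of the 234 disease-associated nuclei, 280 genes were tested and 20 differed, and with replicates 2 and 3 only 1132 genes were tested and 145, or 12.8%, differed, 6.01% higher and 6.80% lower.

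PHD1-/- border macrophages were then compared with PHD1+/+ border macrophages, 2 libraries against 3. Of 392 genes tested, 0, or 0%, differed at an adjusted p under 0.05 in edgeR or in DESeq2, and 0 had an unadjusted p under 0.05 in edgeR. Fold changes here are log2 of PHD1-/- over PHD1+/+, and every adjusted p was 0.999 (edgeR). The smallest unadjusted p belonged to Lyz2, with 516 and 930 CPM in PHD1-/- replicates 1 and 3 against 764, 1558 and 15439 CPM in PHD1+/+ replicates 1 to 3 (-2.83 ± 1.46). C1qa, a chain of the complement starter C1q, stood at 229 and 930 CPM in PHD1-/- and at 360, 887 and 4082 CPM in PHD1+/+ members (-1.52 ± 1.12). The value of PHD1+/+ replicate 3 was the highest for both, and it is the library in which 1 nucleus held 44.0% of the counts. Of 13 tested pan-macrophage genes, 12 had a negative fold change, with a median of -0.49 against 0.00087 over all genes, and none was called. All 5 tested oligodendrocyte genes had a positive fold change, with a median of 0.43; these genes summed to 6076 and 3588 CPM in members of PHD1-/- replicates 1 and 3 and to 6295, 1065 and 628 CPM in those of PHD1+/+ replicates 1 to 3, and their part in the fold changes was not tested.

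With replicates 2 and 3 only, PHD1-/- replicate 3 stood alone against PHD1+/+ replicates 2 and 3, and 10 of 1457 genes, or 0.686%, were called, 5 each way (0.343%), on the assumption that the lone library varies like the others. Of these, Slc24a2, Edil3, Ptgds, Nkain2 and Pcdh9 were higher and Fcna, Vsig4, Aqp4, Crip1 and Lyz2 lower in PHD1-/-, Lyz2 with a fold change of -3.21 ± 0.88. Aqp4 is 1 of 8 listed astrocyte genes. They summed to 221 CPM in members of PHD1-/- replicate 3 and to 1794 and 105 CPM in PHD1+/+ replicates 2 and 3. A member of PHD1+/+ replicate 2 held 7 of the 8. The oligodendrocyte genes summed to 3588 CPM in PHD1-/- replicate 3 against 1065 and 628 CPM. The part of such RNA in these fold changes was not tested. Whether the difference between border macrophages and all microglia depended on genotype was tested as an interaction, and 0 of 2861 genes passed (0%), with 61 at an unadjusted p under 0.05 and a smallest adjusted p of 0.239 (edgeR).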

How the data were processed

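The authors deposited UMI counts of each gene in each barcode, not normalized, from a droplet-based 3' kit. Per the file headers, Cell Ranger 5.0.1 wrote them. Cell Ranger 5.0.2, Scanpy 1.8.1 and build mm10 are listed in the submitters' processing notes. The sources used here do not give whether intronic reads were counted. The counts cover 32285 genes, and 4 antibody tags hold 0 UMIs.

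The members, comparison classes and gene lists were chosen with earlier results of these data known. A list's genes that are not in the files were not used here, and Clec7a was dropped from the disease-associated rule. A homeostatic-type nucleus had more of the 6 homeostatic than of the 5 disease-associated genes. A disease-associated nucleus had at least as many disease-associated as homeostatic genes and at least 1 UMI of Csf1r, Cx3cr1, Ly86, C1qa or Inpp5d. Doublets were kept, as in the rule, and Scrublet (Scanpy 1.11.5) marked 0 nuclei in either replicate 1 library.

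Sums of UMI counts over the nuclei of a class in a library were tested with edgeR 4.0.16 in R 4.3.3 (TMM, filterByExpr, quasi-likelihood, Benjamini-Hochberg over all genes tested, threshold 0.05), with DESeq2 1.42.0 as an alternative, and the scripts were tested on simulated data. CPM are UMIs scaled to the total of the class in a library. Genes named in class contrasts are the 12 highest and 12 lowest fold changes among calls of 1 sign in every library, members of the gene lists and the markers, and only some of them are described. Figures were drawn from the counts with matplotlib 3.10.9. Over 11043 genes, deviations from the genotype mean correlated between same-numbered libraries with r = 0.913, 0.751 and 0.750 (replicates 1 to 3), all over 0.1, so the numbers were taken as pairs in the fit with a replicate block. Pairs of replicates 2 and 3 with different numbers reached 0.681 and 0.696. These pass 0.1 as well, so among replicates 2 and 3 this limit does not tell pairs from other combinations. Gene positions are from GENCODE on GRCm38, the assembly of mm10.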

Additional observations from a re-analysis of the deposited data

Results flagged for a closer look

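Per-library fold changes (log2 of border macrophages over the microglia class) were screened for a library far from the other 4, and 4 of the 48 genes and contrasts screened had one. Chance alone gives about 1 in 20. Against homeostatic-type microglia, the fold change of Mcc, a tumour suppressor gene, was 6.42 in PHD1+/+ replicate 3 and 2.71 to 3.29 in the others. That of Arhgef3, an exchange factor for RhoA, was 5.28 in PHD1-/- replicate 3 and 1.83 to 2.82 in the others. That of Plxdc2 was -7.40 in PHD1+/+ replicate 3, where members had 0 UMIs, and -3.88 to -2.47 in the others. Against disease-associated microglia, the fold change of Cd9, a tetraspanin gene, was -6.06 in PHD1-/- replicate 1, where members had 0 UMIs, and -2.83 to -1.55 in the others.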

How the results depend on the processing

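With about 1407 UMIs per member and 4 to 28 members per library, genes of low level were out of reach. The difference in the share of nuclei (PHD1-/- minus PHD1+/+, -0.0282 points) turned to 0.000991 when nuclei were thinned to 1000 UMIs, and ran from -0.141 to 0.0450 when 1 library was left out. Leaving out PHD1-/- replicate 1 or 2 or PHD1+/+ replicate 2 made it positive. The difference in the share of macrophage nuclei (-0.108 points) turned to 1.13 after thinning, 0.559 at a minimum of 1000 UMIs, 0.242 with at least 3 pan-macrophage genes per member, a setting added after seeing the data, and 0.147 in replicates 2 and 3 only. It ran from -2.41 to 2.03 when 1 library was left out. No setting gave an exact permutation p under 0.2, but with 1 library left out that test cannot give a smaller p. With replicates 2 and 3 only its floor is higher still, so these settings cannot show a difference by p. Without PHD1-/- replicate 3 the p was 0.2 for both shares, as the remaining PHD1-/- libraries lay below every PHD1+/+ library.

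With the replicate block, the pairs differed in share by -0.00964, -0.295 and 0.220 points (exact p = 0.75, with 0.25 the smallest possible) and in the share of macrophage nuclei by -0.617, -4.60 and 4.89 points (exact p = 1). The mean differences of -0.0282 and -0.108 points and all calls stayed as they were, with 0 genes called between genotypes in the blocked edgeR fit.

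Between genotypes, 10 genes were called with replicates 2 and 3 only and 3 (Fcna, Nkain2 and Pcdh9) with at least 3 markers per member, against 0 under the other settings. Calls against homeostatic-type microglia (336) numbered 148 without the library block, 835 with no filter and 207 at 1000 UMIs, and 255 to 353 when 1 library was left out. Calls against disease-associated microglia (59) numbered 29 without the library block, 132 with no filter and 145 with replicates 2 and 3 only. They numbered 120 with at least 3 markers and 22 at 1000 UMIs, and 20 to 70 when 1 library was left out. The interaction had 0 to 3 calls when 1 library was left out and 3 with at least 3 markers (Nkain2, Pcdh9 and Slc24a2). Without PHD1+/+ replicate 1 the 3 were Edil3, Slc24a2 and Tmeff2, and without PHD1+/+ replicate 3 there were 2, Aqp4 and Gabrb1. The cause was not tested. Among the 12 highest and 12 lowest genes of each class contrast, 346 of 346 values under alternatives kept their call against homeostatic-type microglia and 41 of 341 lost it against disease-associated microglia. Among the other called list members, 140 of 603 values of 41 genes lost the call against homeostatic-type microglia, Rps15, Irf8 and P4ha1 under the most alternatives, and 36 of 115 values of 8 genes against disease-associated microglia. No call among these genes changed sign. Edil3 and Lyz2 gained a call between genotypes with replicates 2 and 3 only.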

Other observations

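F13a1 was detected outside the members as well. Members held 13.2%, 9.03% and 53.0% of all F13a1 UMIs in PHD1-/- replicates 1 to 3 and 5.59%, 27.5% and 34.7% in PHD1+/+ replicates 1 to 3. Nuclei with at least 2 UMIs of the neuronal genes Snap25 and Rbfox3 had F13a1 in 55 of 2155, 86 of 3426 and 71 of 2673 cases in PHD1-/- replicates 1 to 3, and in 84 of 3338, 122 of 3393 and 83 of 2869 cases in PHD1+/+ replicates 1 to 3. Oligodendrocyte nuclei with no UMI of 5 macrophage genes had it in 4, 0 and 0 cases in PHD1-/- and in 12, 3 and 2 cases in PHD1+/+ replicates 1 to 3. Mrc1 was found in 16, 19 and 11 of the neuronal nuclei of PHD1-/- replicates 1 to 3 and in 34, 18 and 11 of those of PHD1+/+ replicates 1 to 3. The neuronal nuclei were deeper, with median UMIs of 3087 to 6657 in PHD1-/- and 2773 to 5893 in PHD1+/+ libraries, against 925 to 1938 and 952 to 1738 in the oligodendrocyte nuclei, and the part of depth was not tested.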
